A study of Mus musculus with 4 samples.

Results

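The 10 genes described here are Fos, Fosb, Fosl1, Fosl2, Jun, Junb, Jund, Atf3, Egr1 and Myc, the AP-1 subunit genes with other transcription factor genes of the immediate early class. ChIP-seq for the transcription factor STAT3 (chromatin immunoprecipitation followed by sequencing) was made from dissociated mouse spinal cord cells. Every peak of the deposited lists with its centre inside one of these genes, or within 50 kb of it, was taken, with gene positions from RefSeq (GRCm38). This gave 58 of the 88765 peaks of the sham list and 18 of the 36249 peaks of the injury (SCI) list on chromosomes 1 to 19, X and Y. The rule for peaks uses position alone and no score, rank or overlap, but the 10 genes were proposed with earlier results of these data known.

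Both conditions used C57BL/6 mice 7 days after surgery. Sham mice had a laminectomy at thoracic level 9, and SCI mice a moderate contusion of 60 kdyn at the same level. There was 1 STAT3 library and 1 input library per condition, tissue of 3 mice was pooled in each, and the input libraries were not analysed here. The labels describe no sort, so each list mixes the cell types that survived dissociation, and a peak cannot be assigned to any of them. A peak list holds no expression level, so markers of the tissue could not be checked. With 1 library per condition no test between sham and SCI was possible, and whether the lists differ in depth or in binding cannot be told apart. The score is the authors' value for the strength of a peak and begins at 5 in both lists. It was used here only as a rank: "top 20%" means that 20% of the peaks of the same list have that score or a higher one. Lists of different lengths give ranks that show no change between conditions.

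AP-1 is a dimer of a Jun protein with a Fos protein or another basic leucine zipper protein. Immediate early genes are transcribed within minutes of a stimulus, without new protein synthesis, and their products then act on later genes. STAT3 carries signals of interleukin-6 and its relatives to the nucleus, and Fos, Junb and Myc are textbook targets of it in cytokine-treated cells. Atf3, which encodes a stress-induced leucine zipper repressor, is widely used as a marker of injured neurons, and Egr1 encodes a zinc-finger factor induced by growth factors and by neuronal activity.

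Every one of the 10 genes had a sham peak in its window, and 7 had an SCI peak. Fos, Fosl2 and Jun had sham peaks only. Among all 21887 protein-coding genes, 95.6% had a sham peak within this distance and 84.2% an SCI peak. Among the 12243 coding genes no longer than Fosl2, the longest of the 10, these shares were 93.6 and 79.0%, and 16.9% had a sham peak without an SCI peak. A peak in the window was therefore the usual state of a coding gene, and the count of 10 in sham lies near that background.

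**Figure D1:**
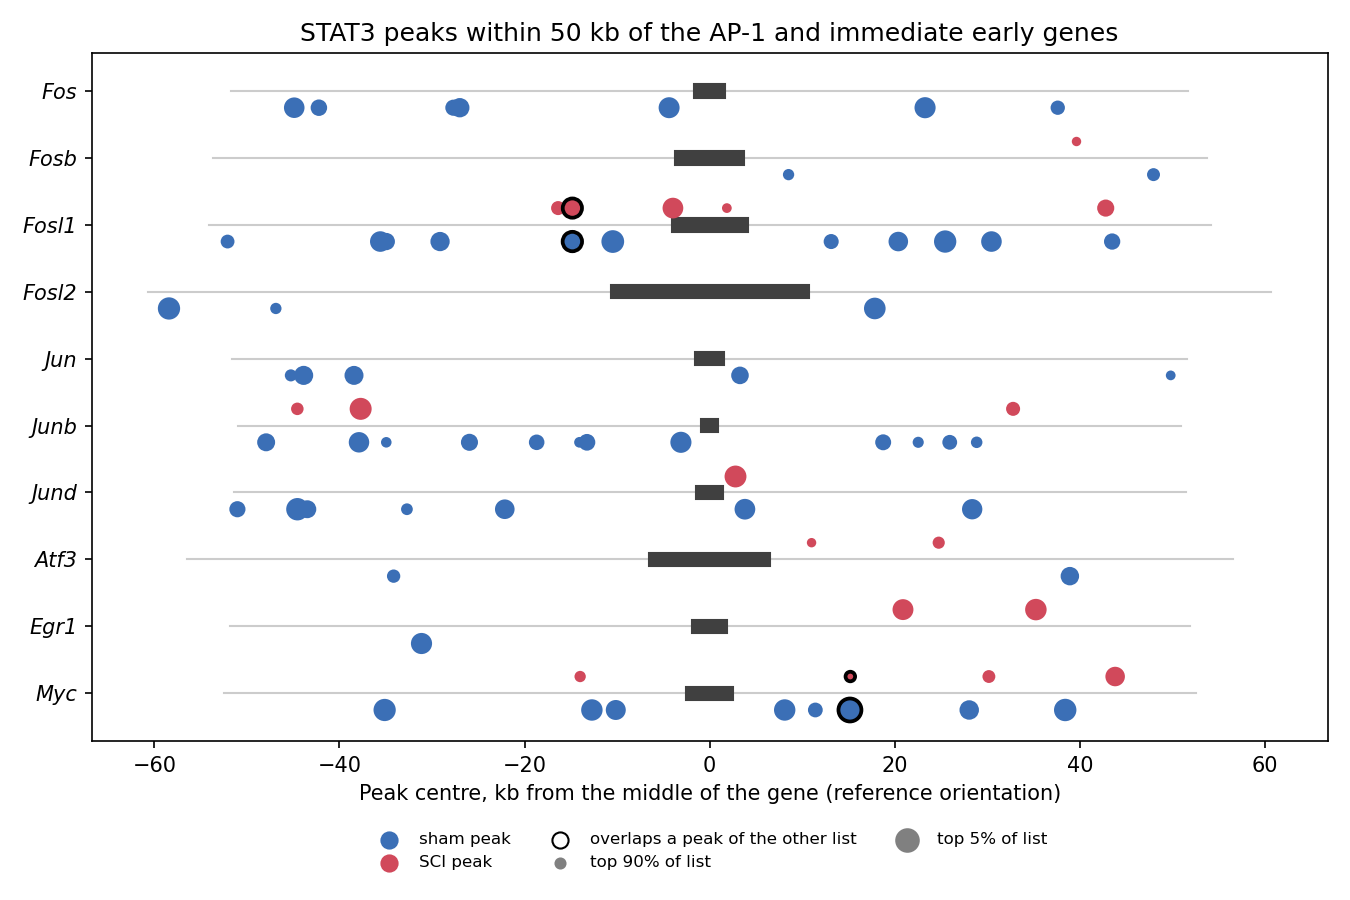
Positions of all 58 sham peaks (blue, below each line) and 18 SCI peaks (red, above) relative to the middle of each gene, in kb along the reference strand. Dark bars are the genes to scale, a larger point has a better rank in its list, and black rings mark the peaks that overlap one of the other list, found at Fosl1 and Myc only.

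Of the 76 peaks, 2 were centred inside a member, both of them SCI peaks in Fosl1. No sham peak was centred inside any of the 10 genes, where 25.2% of the coding genes up to the length of Fosl2 held one; 0 of 10 allows a share of up to 30.8% (exact 95% interval). SCI peaks were centred inside 1 of the 10, near the 12.2% of those coding genes. Most of the 10 are also much shorter than Fosl2. Within 5 kb, 5 genes had a sham peak (Fos, Fosb, Jun, Junb and Jund) and 3 an SCI peak (Fosl1, Jund and Atf3). Over all coding genes, longer ones than Fosl2 included, the shares at this distance were 66.7% (sham) and 43.9% (SCI). Neither count of the 10 lies above these shares, but they are not matched for gene length. Among coding genes up to the length of Fosl2, 51.3% had their nearest sham peak 4813 bp away or farther. For SCI, 75.4% of them had it 4491 bp away or farther. The share within 5 kb was not computed for genes of that length, so how the 10 stand against them was not tested. RefSeq promoter windows, 250 bases before to 50 after a transcription start, were at hand for 7 of the genes: Fos, Fosb, Fosl2, Jun, Junb, Jund and Atf3. No peak of either list touched any of these 7. Such a touch was rare in general, with 1.69% of 32851 promoter windows overlapped in sham and 0.682% in SCI.

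The Fos family had 23 sham and 6 SCI peaks. At Fos (gene ID 14281, chromosome 12, 85473890 to 85477274), which encodes the founding AP-1 partner of Jun, there were 7 sham peaks and no SCI peak. The nearest, at 85471105 to 85471294, lay 2690 bp upstream of the start. It scored 14.2, which is the top 18.8% for sham. The best-ranked, in the top 17.6%, lay 21580 bp beyond the 3′ end. Of the rest, those 43193 and 40529 bp upstream were centred inside the noncoding RNA gene Gm40477, the first also inside Gm29709. Fos was the nearest coding gene to all 7. The nearest SCI peak to Fos was 109 kb away, and 5.08% of all coding genes, or 6.89% of those up to the length of Fosl2, had their nearest SCI peak at that distance or farther.

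The 250 bases upstream of Fos and of Junb are shown because both are known STAT3 targets and no peak of either list lay there. They are from RefSeq (GRCm38.p6), read 5′ to 3′ on the strand of the gene, with capitals for the half-site TGACG of the cAMP response element, searched on both strands. Fos lies on the plus strand (chr12:85473640-85473889) and Junb on the minus strand (chr8:84978749-84978998).
Fos: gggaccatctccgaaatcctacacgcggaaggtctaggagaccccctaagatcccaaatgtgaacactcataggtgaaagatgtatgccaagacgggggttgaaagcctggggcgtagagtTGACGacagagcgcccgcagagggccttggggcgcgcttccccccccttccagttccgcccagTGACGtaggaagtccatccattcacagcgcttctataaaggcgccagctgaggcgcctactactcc
Junb: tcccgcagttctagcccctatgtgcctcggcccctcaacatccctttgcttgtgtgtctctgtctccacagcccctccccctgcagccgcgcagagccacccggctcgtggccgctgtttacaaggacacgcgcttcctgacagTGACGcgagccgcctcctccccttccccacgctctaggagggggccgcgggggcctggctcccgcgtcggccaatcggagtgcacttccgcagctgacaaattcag
Fos has 2 such half-sites, beginning 129 and 66 bases upstream of the start, and Junb has 1, at 106 bases. This half-site was chosen after the sequences had been examined; it was present in 4 of the 7 windows (Fos, Fosb, Junb and Atf3) and in 20.8% of all promoter windows. The STAT motif TTCNNNGAA, present in 8.30% of all windows, was in none of the 7. The same held for the AP-1 motif TGANTCA (7.81% of windows), the full cAMP response element TGACGTCA (1.79%) and the CArG box bound by serum response factor (1.63%). The first 3 of these read the same on both strands, and the full cAMP element contains the half-site. These counts describe the letters of windows 300 bases long and no more.

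Fosb (gene ID 14282, chromosome 7, 19302696 to 19310118) encodes a Fos relative best known in neurons, and it had few and low-ranked peaks. Its 2 sham peaks were in the top 84.1% (4886 bp upstream of the start) and the top 75.7% (inside Ercc1, a DNA repair gene). The SCI peak, also inside Ercc1, had the lowest score of the list, 5.

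Fosl1 (gene ID 14283, chromosome 19, 5447698 to 5455938), which encodes the AP-1 subunit Fra-1, had 11 sham peaks and 5 SCI peaks. It was the one member with SCI peaks inside the gene. The better of these, at 5447766 to 5447929, began 68 bp from the lower end of the gene, scored 11.0 and ranked in the top 20.9%. The other, at 5453593 to 5453756, was in the top 91.0% and centred inside both Fosl1 and the neighbouring gene Ccdc85b. Sham had no peak at either place, and its nearest peak centres were 6498 and 11272 bp away. The strand of Fosl1 is not in the tables used here, so which end is the start is not stated.

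The best-ranked sham peak at Fosl1, at 5441255 to 5441444, scored 30.3 in the top 2.66% and lay 6348 bp below the gene. One place near Fosl1 was shared. The sham peak at 5436887 to 5437076 (score 10.7, top 31.9%) contained the whole SCI peak at 5436902 to 5437065 (score 8.84, top 33.3%), with centres 2 bp apart. This place was 10.7 kb from Fosl1 and nearer to another coding gene, AI837181. Another SCI peak, at 5494527 to 5494690, lay 694 bp from a sham centre without overlap. The window of Fosl1 held 11 other coding genes, the most of the 10 windows, and 10 of its 11 sham peaks lay nearer to one of those, among them 2 inside Efemp2, an extracellular matrix gene.

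Fosl2 (gene ID 14284, chromosome 5, 32136472 to 32157840), which encodes Fra-2, had 3 sham peaks and no SCI peak. They ranked in the top 6.95, 13.0 and 84.1%. The one nearest to Fosl2, at 32164902 to 32165091, lay 7157 bp beyond the gene, downstream, with a score of 17.0. The other pair were upstream and nearer to Babam2. The nearest SCI peak was 54.5 kb away, just outside the window, with a score of 6.48.

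**Figure D2:**
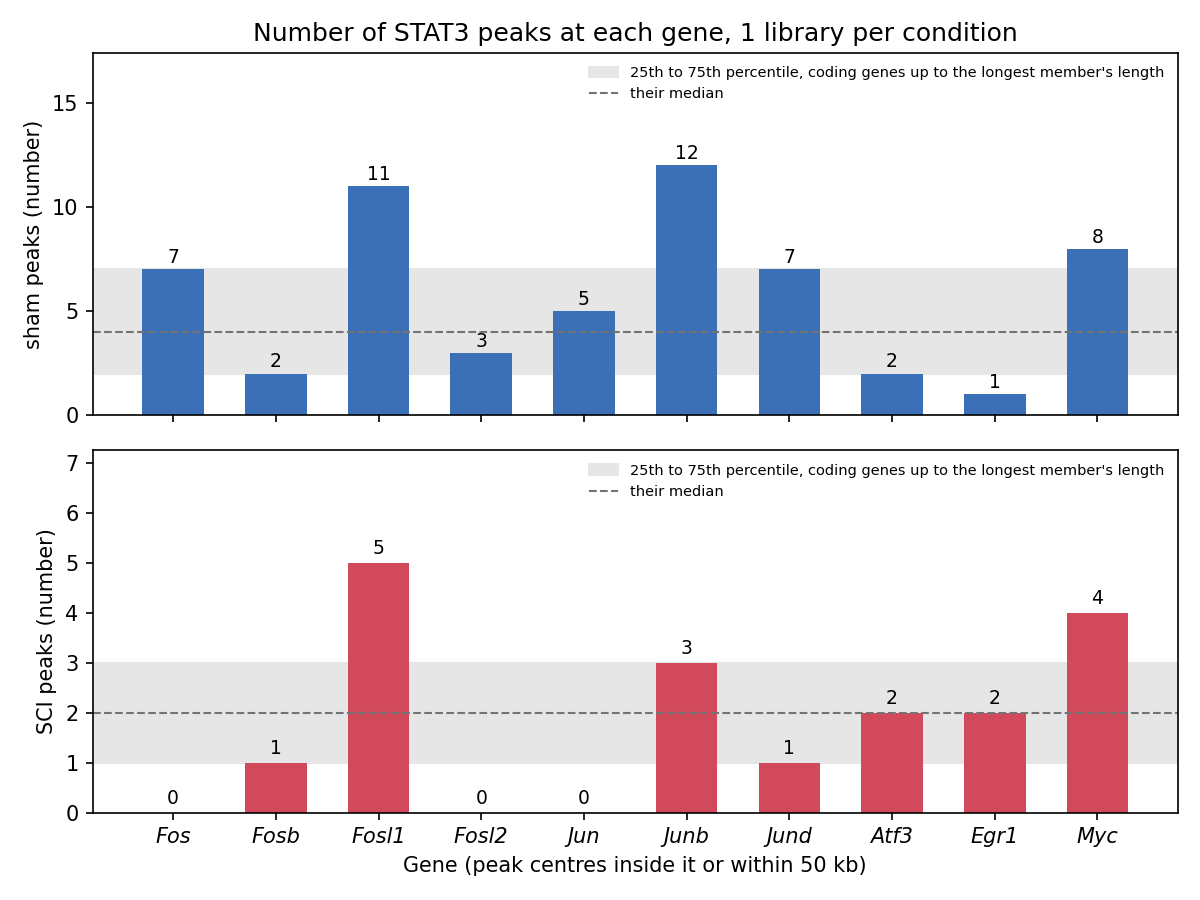
Number of sham peaks (upper panel) and SCI peaks (lower panel) in the window of each gene. The dashed line and grey band give the median and the 25th to 75th percentile over the 12243 coding genes no longer than Fosl2: Junb (12), Fosl1 (11) and Myc (8) stand above the band in sham, and Fosl1 (5) and Myc (4) in SCI. Below the band are Egr1 in sham (1) and Fos, Fosl2 and Jun in SCI (0).

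The Jun family had 24 sham and 4 SCI peaks, none of them overlapping between the lists. Jun (gene ID 16476, chromosome 4, 95049036 to 95052222), the gene of the c-Jun subunit, had 5 sham peaks and no SCI peak. The nearest sham peak, at 95053809 to 95053998, lay 1682 bp upstream of the start, inside the noncoding RNA gene Junos, with a score of 8.57 in the top 46.1%. It was the sham peak closest to any of the 10 genes. The best-ranked, in the top 34.5%, was 42275 bp from Jun and inside the noncoding RNA gene Gm12694, as were those in the top 80.2 and 35.4%. The last, also inside Junos, was in the top 91.0%. The nearest SCI peak to Jun was 77.1 kb away, a distance reached or passed by 8.84% of all coding genes and 11.9% of those up to the length of Fosl2.

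Junb (gene ID 16477, chromosome 8, 84976909 to 84978748) encodes a Jun protein that can restrain c-Jun, and its window held the largest number of sham peaks among the 10, at 12. As many or more were found at 10.2% of all coding genes and at 3.04% of those up to the length of Fosl2. The window also held 8 other coding genes, and each of the 12 peaks lay nearer to one of those than to Junb. The peak closest to Junb, at 84974626 to 84974815, lay 2188 bp beyond the gene and inside Prdx2, a peroxiredoxin gene; it scored 14.7 in the top 17.6% and was the best of the 12. The ranks of the 12 ran from the top 17.6% to the top 87.5%.

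Junb also had the nearest miss between the lists. Inside Mast1, a kinase gene 36.8 kb from Junb, an SCI peak at 84940038 to 84940201 followed a sham peak at 84939846 to 84940035 with 2 bp between them. The SCI peak scored 14.7 and, in the top 9.58%, was the best-ranked SCI peak at any of the 10 genes, and the sham peak scored 12.7 in the top 23.2%. Their centres were 179 bp apart, less than the usual peak width of 190 bp in sham, but the pair was not counted as shared because the overlap was 0. The other SCI peaks at Junb were inside Mast1 (top 78.0%) and inside Best2 (top 69.6%).

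Jund (gene ID 16478, chromosome 8, 70697739 to 70700616) encodes the Jun protein that is present in many resting cells. It had 7 sham peaks and 1 SCI peak, and both lists had a peak just past its 3′ end. The SCI peak, at 70701843 to 70702006, was centred 1309 bp beyond the gene with a score of 14.2 in the top 10.6%. The sham peak, at 70702890 to 70703079, was centred 2369 bp beyond it with a score of 13.3 in the top 21.2%. The centres were 1060 bp apart, and both lay inside the next gene, Iqcn. The best-ranked sham peak at Jund, in the top 5.63% with a score of 23.8, lay 43104 bp upstream and inside Pgpep1.

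The SCI peak beside Jund was the one peak of all 76 that touched a promoter window of any gene. It ended 19 bases before the Iqcn start that the RefSeq promoter table gives at 70702025, on the plus strand. The gene span of Iqcn used above begins before that start, so the peak centre lies inside the span and upstream of this start. Its sequence is shown because it is the one peak at these genes whose letters are in the tables used here (RefSeq, GRCm38.p6, chr8:70701843-70702006, 164 bases, plus strand, the capital marking the base at the peak centre).
Jund SCI peak: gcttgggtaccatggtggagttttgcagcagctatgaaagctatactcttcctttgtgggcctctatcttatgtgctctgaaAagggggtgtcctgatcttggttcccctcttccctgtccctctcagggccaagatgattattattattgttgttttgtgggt
The GC content of this stretch was 47.0%, and none of the motifs TTCNNNGAA, TGANTCA and TGACGTCA was in it.

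Atf3, Egr1 and Myc had 11 sham and 8 SCI peaks together. Atf3 (gene ID 11910, chromosome 1, 191170296 to 191183333) had 2 peaks in each list, all in different places. Its SCI peaks were the closer ones, 4491 and 18228 bp upstream of the start, but they had low scores of 5 and 5.71 (top 92.3 and 79.9%). The sham peaks were 32399 bp upstream (score 9.41, top 39.4%) and 27628 bp beyond the other end of the gene (score 6.17, top 73.6%). The smaller of these distances to the nearest sham peak was reached or passed by 9.13% of all coding genes and 13.6% of those up to the length of Fosl2. The smallest distance between an SCI and a sham centre at Atf3 was 14171 bp.

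Egr1 (gene ID 13653, chromosome 18, 34861207 to 34864956) was the one gene of the 10 with more SCI peaks than sham peaks. The SCI peaks were 19011 bp (score 11.4, top 19.5%) and 33371 bp (score 12.8, top 14.2%) from the higher end of the gene, both outside any gene, and Etf1 was the nearest coding gene to both. The only sham peak lay 29.3 kb from the lower end, inside the histone demethylase gene Kdm3b, with a score of 14.9 in the top 17.1%. All 3 peaks thus lay in the top 19.5% of their own lists. A nearest sham peak 29.3 kb away or farther was found for 8.51% of all coding genes and 12.7% of those up to the length of Fosl2. The nearest sham centres to the SCI peaks were 52.0 and 49.2 kb away.

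Myc (gene ID 17869, chromosome 15, 61985341 to 61990361), which encodes a basic helix-loop-helix factor of growth and proliferation, had 8 sham and 4 SCI peaks. No other coding gene reached into its window, and all 12 had Myc as the nearest coding gene. The sham peaks ranked in the top 0.311, 5.66, 7.28, 14.7, 15.0, 27.2, 31.5 and 65.1% of their list, so 5 of the 8 were in the top 15.0%. The SCI peaks ranked in the top 31.1, 76.1, 84.0 and 91.7% of theirs. In the full lists, most sham peaks at Myc thus ranked high and most SCI peaks low. The lists differ in length, so this shows no change between conditions. With only as many of the best sham peaks kept as the SCI list has (36249), 7 of the 8 remained. Their ranks from the top were 276, 5021, 6461, 13015, 13324, 24171 and 27981, so they were spread over that shorter list.

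The highest score at any of the 10 genes was at Myc, and that place was shared. The sham peak at 62002961 to 62003052, 12646 bp past the higher end of the gene, scored 51.6 and ranked 276 in the sham list. It was 92 bp wide, while 99.0% of the sham peaks had 190 bp, and it was the only one of the 58 with another width. The SCI peak at 62002966 to 62003129 overlapped it by 87 bp, and scored 5.07, which is the top 91.7% for SCI. Neither the input libraries nor a list of problem regions was used here, and whether this narrow, high peak reflects binding was not tested.

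**Figure D3:**
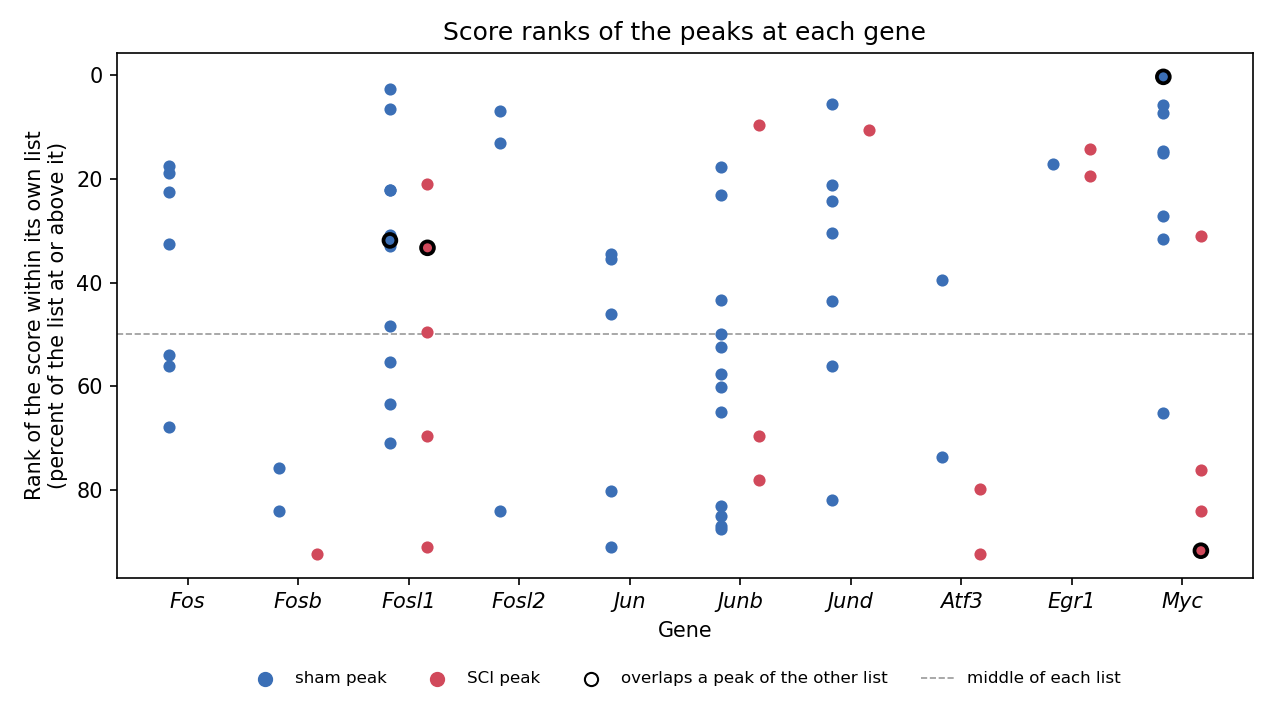
Rank of each peak within its own list, as the percent of the list with that score or a higher one, for the 58 sham peaks (blue) and 18 SCI peaks (red); the axis runs downward, so strong peaks are at the top. The dashed line is the middle of each list, and the ringed peaks overlap one of the other list: the pair at Fosl1 sits at 31.9 and 33.3%, that at Myc at 0.311 and 91.7%.

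The ranks over all 10 genes were spread over both lists. The median sham peak was in the top 37.4% (95% interval from order statistics 30.4 to 53.9%), beside 48.7% for sham peaks in the windows of all coding genes, a value inside that interval. It was in the top 53.0% once the sham list was shortened to the SCI number of peaks. Of the 58, 20 were in the top 25%, a share of 34.5% (95% exact binomial, Clopper-Pearson, 22.5 to 48.1%). The median SCI peak was in the top 69.6% (20.9 to 84.0%), beside 48.9%, which is also inside the interval. Without the peaks of the score form described further on it was in the top 41.1%, ranked among the peaks kept. The 48.9% is from ranks in the whole list, so it is not a background for that value. Among the SCI peaks, 5 of 18 were in the top 25%, which is 27.8% (9.69 to 53.5%). These intervals treat peaks as independent and cover counting error only. Both intervals include 25%, so the excess of strong peaks was not larger than counting error. By group, the median sham rank was the top 32.5% at the Fos genes, 51.1% at the Jun genes and 17.1% at Atf3, Egr1 and Myc. These rest on 23, 24 and 11 peaks, and 8 of the last 11 were at Myc. The median SCI rank was the top 59.6, 40.1 and 78.0%, from 6, 4 and 8 peaks. Differences between the groups were not tested.

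Sham peaks were dense in these windows, mostly at Fosl1 and Junb. The 10 windows, 1.07 Mb in all, held 54.2 sham peaks per Mb, beside 37.3 in the windows of all coding genes, which for this length comes to 39.9 peaks. Fosl1 and Junb accounted for 23 of the 58. The other 8 genes had 35, where the density of all windows gives 32.1. The SCI peaks came to 16.8 per Mb beside 15.1, but without Fosl1 and Junb, which had 8, there were 10 where the density of all windows gives 13.0. Fosl1 and Junb hold the most sham peaks of the 10, and leaving out the highest counts lowers the rest. The density of all windows was not trimmed in this way, so the values for the other 8 genes do not show how they stand against it. SCI peaks made up 23.7% of the 76 peaks of both lists (exact interval 14.7 to 34.8%), and 28.9% in the windows of all coding genes, a value inside that interval.

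Overlap with sham was found for 2 of these 18, which is 11.1% (exact interval 1.38 to 34.7%). Among all SCI peaks 21.6% did, a share inside that interval. From the other side 2 of 58 sham peaks were shared, or 3.45% (0.420 to 11.9%), beside 8.84% of the whole sham list. A sham centre lay within 200 bp of 3 of the 18, beside 21.9% of all SCI peaks, the third being the pair in Mast1. For 14 of the 18 there was none within 1000 bp, as for 73.2% of all SCI peaks. The median distance to the nearest sham centre was 3654 bp, and 6194 bp over all SCI peaks.

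**Figure D4:**
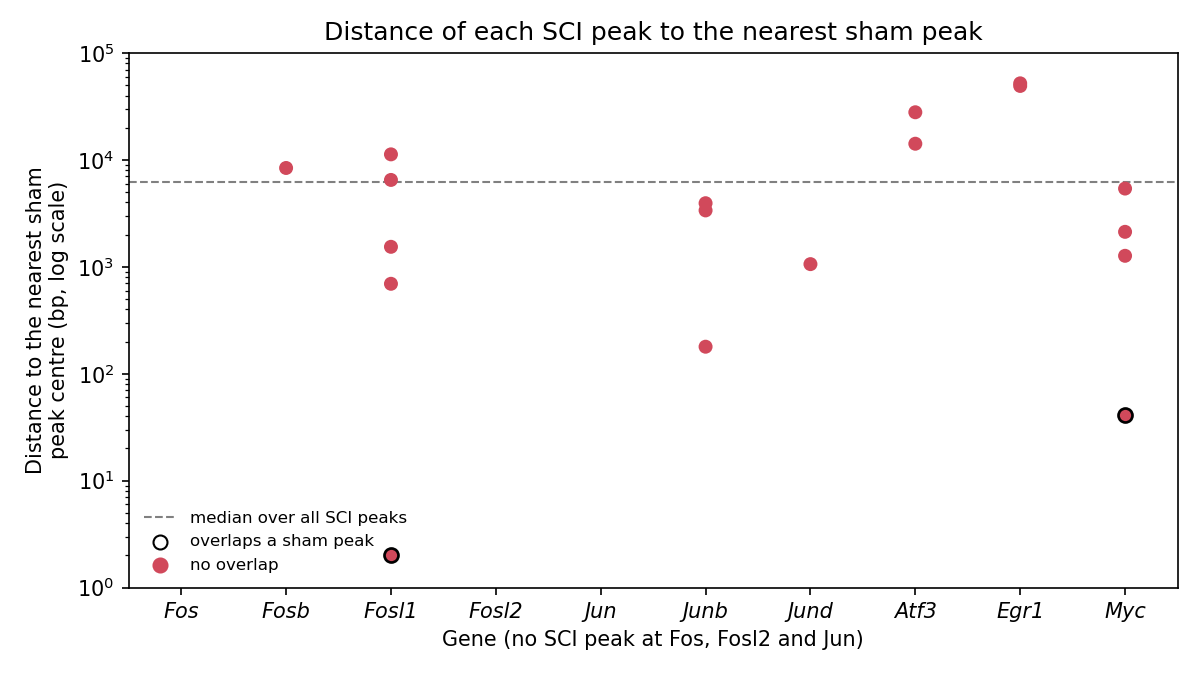
Distance in bp (log scale) from the centre of each of the 18 SCI peaks to the nearest sham peak centre, by gene; rings mark the 2 peaks that overlap a sham peak, and the dashed line is the median over all SCI peaks. The peaks at Atf3 and Egr1 lie farthest from any sham peak, from 14171 to 52028 bp, and those at Junb, Jund and Myc all lie below the line.

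Sharing also differed between peaks with and without a certain form of the score. Many scores have 1 form: with 1 added and the sum halved, their square is a whole number (within 0.0001), as for the lowest score. Among all peaks with this form, found in 33.1% of the SCI and 22.9% of the sham list, 4.82 and 0.727% were shared, against 30.0 and 11.3% of the other peaks. At the 10 genes 5 of 18 SCI and 7 of 58 sham peaks had it, and none of these 12 was shared. They include both SCI peaks with the lowest score, at Fosb and Atf3. The 5 SCI peaks of this form ranked in the top 69.6 to 92.3%, and the 7 sham peaks in the top 7.28 to 87.5%. Sharing was not compared at equal rank, so whether it goes with the form or with the rank was not tested.

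A wider list of 52 genes was set beside the 10, in 4 groups: other leucine zipper genes, other immediate early transcription factors, other immediate early genes, and kinases and cofactors that act on AP-1. All 52 had a sham peak within 50 kb and 48 had an SCI peak, 92.3% (exact interval 81.5 to 97.9%), beside 95.6 and 84.2% of all coding genes. The 4 without an SCI peak were Arc, Zfp36, Ptgs2 and the kinase gene Map2k4. Set beside this, 3 of the 10 genes (Fos, Fosl2 and Jun) lacked one, and the difference was not tested. The 52 were not matched to the 10 for length. They include genes with far larger windows, such as Mrtfa with 178456 bp against 21369 bp for Fosl2.

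Among the 13 leucine zipper genes, all had both kinds of peak. The best-ranked sham peaks were at Atf1 (top 1.00%), Atf7 (1.41%) and Batf (2.10%), and the best-ranked SCI peaks at Batf (3.97%), Mafg (4.00%, inside the gene) and Mafk (6.54%). Batf encodes a partner of Jun proteins in lymphocytes, and Mafg and Mafk encode small Maf proteins. The 13 other immediate early transcription factor genes also all had both. Npas4, an activity-dependent factor of neurons, led in sham (top 0.469%, 16.9 kb from the gene) with a peak 99 bp wide, narrower than usual like the one at Myc. Srf, whose product drives Fos transcription, led in SCI with a peak inside the gene at 46549329 to 46549492 on chromosome 17 (score 18.1, top 5.01%).

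Of the 14 other immediate early genes, 11 had an SCI peak. The best-ranked sham peak was at Ier3 (top 0.569%, 5.48 kb away) and the best-ranked SCI peak at Gadd45b, a stress-response gene (top 5.08%, 21.8 kb away). Of the 12 kinases and cofactors, 11 had an SCI peak. Elk4 and Mrtfa, which encode cofactors of serum response factor, led with SCI peaks inside the genes (top 5.23 and 5.39%).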

How the data were processed

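STAT3 binding was measured by ChIP-seq in 1 library per condition, and the 2 STAT3 peak lists were matched to their samples by title. Per the submitters' processing notes, Bowtie2 and the build mm10 were used. How peaks were found, with which program, control and cut-off, was not given in the sources used here. Each peak has a score deposited by the authors, used here to rank peaks within a list, and a −log10 value that stands in the q-value column of the deposited lists and was not used for results. Read counts are not part of the lists, so the depth is unknown.

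Unplaced sequences were left out, which kept chromosomes 1 to 19, X and Y. A peak belonged to a gene when its centre lay inside it or within 50 kb, and was shared when at least 1 bp was also covered in the other list. Gene spans came from RefSeq GRCm38.p6, whose primary chromosomes have mm10 coordinates, with 21887 protein-coding genes; starts, strands and sequences came from its promoter table. The 10 genes and the lists were chosen with earlier results of these data known. Named peaks are each gene's best-ranked and nearest peak of each list and every shared pair, with others added where a gene had few; from the wider list up to 3 genes per group and condition were named by best rank, and 1 gene that the rule names is not reported here. Alternatives were other windows, score filters, merging and other rules for sharing. Counting functions were tested on simulated data. Software was Python 3.11.15 with scipy 1.17.1, numpy 2.4.6, pandas 2.3.3 and, for figures, matplotlib 3.10.9.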

Additional observations from a re-analysis of the deposited data

How the results depend on the processing

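The counts at the 10 genes depend on the window. Within 5 kb there were 5 sham peaks at 5 genes and 4 SCI peaks at 3 genes, with 0 shared, a median sham rank of 21.2%, an SCI peak at 43.9% of all coding genes and at 22 genes of the wider list. Within 10 kb there were 11 sham peaks (median rank 21.2%) and 4 SCI peaks at 3 genes, with 0 shared, and an SCI peak at 52.2% of coding genes and 26 of the wider list. Within 25 kb there were 23 sham peaks (median rank 30.4%) and 10 SCI peaks. Within 100 kb there were 113 and 31, of which 5 in each list were shared. At 100 kb, 9 of the 10 genes had an SCI peak, Fos being the exception, near the 94.2% of all coding genes with one. A minimum score at the median of each list left 35 sham and 8 SCI peaks, 1 of each shared. Shortening the sham list to the SCI number of peaks left 30 sham peaks, 2 of them shared. With centres within 1000 bp counted as shared, 4 peaks of each list were, and within 200 bp 3. Requiring an overlap of 50% of both peaks left 2. Dropping peaks of the score form or merging peaks within 500 bp kept each of these counts within 1.5 times of its value. The median SCI rank, however, went from 69.6 to 41.1% without the score form, and to 40.3% with the minimum score, ranked among the peaks kept. The median sham rank was 53.0% with the shortened list and 44.9% with the minimum score. Of 160 values for single genes under these settings, 79 were within 1.5 times of the main value. Some of these could not move. An SCI count of 0 stays 0 under a filter or a smaller window, and shortening the sham list leaves the SCI counts as they are. With each change of window, 14 to 16 of 20 values moved. The median ranks under other settings were added after the data had been seen. No paired analysis was possible because each condition has 1 library. Depth is unknown, so an absent peak is not shown to be absent binding.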
